A study of Equus caballus with 3 samples.

Results

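The cytosolic ribosomal protein (RP) genes were examined in single-cell RNA sequencing (scRNA-seq) data of equine mesenchymal stromal cells (MSCs). A row of the gene-by-cell matrices was counted as an RP gene if its name was RPL or RPS followed by digits and at most 1 of the endings A, L, X or Y, or was *RPSA*, *RPLP0*, *RPLP1* or *RPLP2*, and kinases of the RPS6K family were left out. This gave 55 of 29927 gene names, of which 28 encode proteins of the large (60S) and 27 proteins of the small (40S) ribosomal subunit or paralogs of them. The RP genes lay on 22 chromosomes of EquCab3.0, with 8 on chromosome 10 and 1, *RPS4X*, on chromosome X.

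The cells of 1 healthy Warmblood mare aged 10 years came from fat (adipose tissue, AT), marrow of the bone (BM) or circulating blood (peripheral blood, PB) and were captured after 2 passages in culture. The labels name no treatment and no genetic change, and each source was sequenced as 1 library of the 10X Genomics 3′ chemistry, so sources and libraries cannot be told apart and no test between sources was made. The deposited source name reads blood mononuclear cells for all 3 samples, and the sources were therefore taken from the sample titles. Every value thus rests on 1 mare and 1 library per tissue.

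Ribosomes are built from ribosomal RNAs and a fixed set of RPs, and cytosolic ribosomes carry out the translation of all mRNAs encoded in the nucleus. RP mRNAs are among the most abundant mRNAs of cultured cells and share a pyrimidine-rich start, the 5′ terminal oligopyrimidine (TOP) motif, through which mTOR signalling adjusts their translation together. RP genes are transcribed by RNA polymerase II, whereas the rRNAs are produced by RNA polymerases I and III and assembled with RPs in the nucleolus.

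After filtering for 2500 to 15000 unique molecular identifiers (UMIs) and at most 3% mitochondrial UMIs, 5403 AT-, 5580 BM- and 5318 PB-derived cells were kept. They held 39980656, 40239295 and 41622445 UMIs, and median UMI numbers per cell were 7291, 6874.5 and 7750. Stromal markers (*THY1*, *CD44*, *ENG*, *ITGB1*, *COL1A1*, *COL1A2* and *COL3A1*) summed to 17470 CPM (UMIs of a gene scaled to a total of 1e6) in AT, 9327 in BM and 16235 in PB. Collagen genes gave most of each sum, and only these genes and *CD44* were lowest in BM. *THY1* was lowest in PB, at 90.5 CPM against 665 (AT) and 531 (BM). *ITGB1* was highest in BM, at 313 CPM against 197 (AT) and 204 (PB). *ENG* differed little, with 62.2 (AT), 64.3 (BM) and 70.4 CPM (PB). Haematopoietic markers (6 genes) summed to 5.13 to 8.67 CPM, with *PTPRC* at 0 in all 3 libraries, and the 4 endothelial markers to at most 0.725 CPM. All 5318 kept PB barcodes were also listed in the AT matrix, where 4870 of 5186 barcodes with 500 to 2500 UMIs occurred in another library, but only 72 to 77 kept barcodes of a source were kept in another source as well.

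Not all RP genes were analysed. Of 80 core RP genes, 56 were matched by name, 53 of them under the rule and 3 under other names, such as *FAU* and *RACK1*, and the paralogs *RPS27L* and *RPL3L* completed the 55. The 24 others, 19 of the 60S and 5 of the 40S subunit, were not analysed here, among them *RPL10*, *RPL23*, *RPLP1* and *RPS3*. In the same matrices, 13208 rows carried only an Ensembl identifier, and 17.7% of the AT UMIs, 16.4% of the BM UMIs and 18.1% of the PB UMIs fell on them. The 2 rows *RPL17-C18orf32* and *RPL36A-HNRNPH2*, each named after an RP gene and a neighbour, fell outside the rule. RP genes have many near-identical pseudogene copies. How reads that match such copies were counted for each RP gene was not examined, so the level of a single RP gene is less certain than the sum.

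RP mRNAs took up 24.7% of all UMIs in AT-derived MSCs, 18.6% in BM-derived and 21.8% in PB-derived MSCs. The exact 95% Poisson intervals, which cover counting error only, were 24.65% to 24.68% for AT, 18.62% to 18.64% for BM and 21.83% to 21.86% for PB. Summed RP CPM were 1.32-fold higher in AT than in BM, 1.13-fold higher in AT than in PB and 1.17-fold higher in PB than in BM. Both subunits followed this order. The 60S genes contributed 11.7% of the AT, 9.17% of the BM and 10.2% of the PB UMIs, and the 40S genes 12.9%, 9.46% and 11.6%. Among the members measured, 60S genes gave 47.5%, 49.2% and 46.8% of RP UMIs in AT, BM and PB, which is not the balance of the whole ribosome, since more 60S than 40S genes were not analysed.

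A share also rises when other RNA is scarcer, which cannot be told apart here from more RP mRNA per cell. Scaling by TMM factors, which are set by the bulk of the genes, widened the gap, with summed RP levels 1.59-fold higher in AT than in BM and 1.17-fold higher in AT than in PB. BM, the source with the lowest RP share, also had the highest median mitochondrial share (1.96% against 1.42% in AT and 1.55% in PB) and the lowest collagen levels, and the part of these in the difference was not tested. Cycling cells, here those with a *TOP2A* UMI, were most frequent in BM as well. Without them the RP shares of AT, BM and PB were 24.9%, 18.9% and 22.0%. Cells without a *TOP2A* UMI can be cycling too, and the part of cycling in the difference was not tested.

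Levels of single RP genes with a UMI spanned more than 2 orders of magnitude, but less than 2 without *RPL11*, the lowest. The values are CPM from 3′ tags, which count transcripts and are not scaled to length. *RPLP0*, encoding the base of the ribosomal stalk that recruits translation factors, stood highest with 12424 CPM in AT, 10690.4 in BM and 9669.8 in PB. *RPS2*, whose protein lies at the mRNA entry channel, followed with 11430.2 CPM in AT, 10515 in BM and 10066 in PB. *RPS2* differed little between sources, with its highest level 1.14-fold above its lowest.

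*RPS18*, of the head of the 40S subunit, had 10387 CPM in AT, 6203 in BM and 8759 in PB. *RPS3A* had 9112, 7117 and 7556 CPM in AT, BM and PB, and *RPS6*, the substrate of the S6 kinases downstream of mTOR, had 8925, 6227 and 7112 CPM. All 3 were highest in AT and lowest in BM. *RPL9*, *RPL13* and *RPL13A* of the 60S subunit had 8002, 7535 and 7421 CPM in AT, with 6241, 5929 and 5609 in BM and 7102, 6808 and 6378 in PB. *RPS12* had 8321 CPM in AT, 4775 in BM and 7330 in PB, a 1.74-fold range that was the widest among the 10 members with the highest mean level.

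The 10 most abundant members of each source took 37.3%, 37.7% and 35.6% of its RP UMIs in AT, BM and PB. In all, 46 members had at least 1000 CPM and 53 at least 100 CPM in every source, and at least 51 members had a UMI in over 90% of the cells of each source. All nucleated cells need ribosomes, so no cells were at hand to set a background for these shares. The ranking of members by level was nearly the same in each library (Spearman's rho over the 55 members against AT of 0.99 for BM and 0.99 for PB, a description across genes of shared chemistry and annotation).

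**Figure D1:**
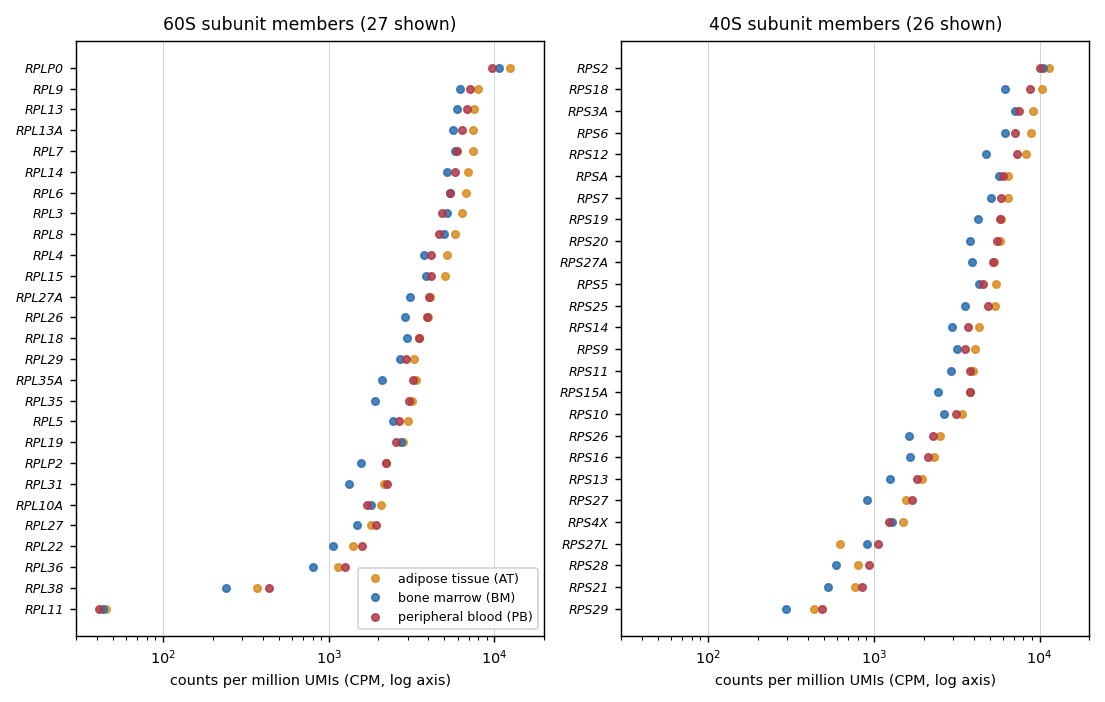
Level of 53 of the 54 RP genes with a UMI (27 of the 60S subunit on the left, 26 of the 40S subunit on the right) in CPM on a log axis, with 1 point per source and genes ordered by mean level. BM points lie leftmost for most genes, *RPS27L* is lowest in AT, and *RPL11* stands apart at 41.0 to 45.4 CPM.

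At the low end, *RPL3L*, a paralog of *RPL3* known from striated muscle, had 0 UMIs in all 3 libraries, which allows levels of up to 0.0750 CPM in AT, 0.0746 in BM and 0.0721 in PB (3 UMIs). *RPL3* itself had 6408 CPM in AT, 5160 in BM and 4852 in PB. *RPL11* was the lowest member with UMIs, at 45.4 CPM in AT, 43.6 in BM and 41.0 in PB, far below its partner *RPL5* with 3009, 2435 and 2676 CPM. RPL5 and RPL11 enter the ribosome together, bound to 5S rRNA as the 5S ribonucleoprotein, and can also bind the p53 regulator MDM2. What set the row of *RPL11* apart was not tested. *RPL38* (371, 240 and 440 CPM in AT, BM and PB) and *RPS29* (434, 295 and 488 CPM), which encode very small RPs, were the next lowest.

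The order of sources was compared gene by gene. Of 54 members with a UMI, 36 followed the order AT, PB, BM from high to low, 9 PB, AT, BM, 8 AT, BM, PB and 1, *RPS27L*, PB, BM, AT. Thus 45 were lowest in BM and 44 highest in AT, and none was highest in BM. The counting error of single genes was small (SE of the log2 difference in BM against AT of 0.0041 for *RPS12* and 0.012 for *RPS27L*), and it does not include variation between cultures.

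On the log2(CPM + 1) scale, 53 of 54 members were lower in BM than in AT, with a median difference of -0.41 beside 0.24 for all 7072 genes with at least 10 CPM in either source. A difference of at least 0.5 downward was found for 19 members, where 6.70% of all genes passed it, and upward for 1 member, where 27.3% of all genes passed it. TMM scaling moved the all-gene median of this pair to -0.01 and the member median to -0.67. Under both scalings 53 members were below 0 and *RPS27L* was above 0. By subunit, 13 of 27 members of the 40S and 6 of 27 of the 60S subunit were among the 19.

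Extremes of each pair of sources are given among members with at least 100 CPM, which leaves out *RPL11*. The members furthest below the median member in BM against AT were *RPS12* (-0.80), *RPS27* (-0.76), *RPS18* (-0.74) and *RPL35* (-0.74, log2 differences). *RPS27*, a zinc finger protein of the 40S subunit, had 1558 CPM in AT, 917 in BM and 1711 in PB. *RPL35*, at the exit of the nascent chain tunnel, had 3197 CPM in AT, 1913 in BM and 3046 in PB. In both, BM stood apart from the other two sources. Furthest above the median member were *RPS27L* (0.53), *RPL19* (-0.05), *RPS2* (-0.12) and *RPSA* (-0.19). *RPL19* had nearly the same level in each source, with 2831 CPM in AT, 2733 in BM and 2542 in PB. *RPSA*, which is also known as the laminin receptor precursor, had 6483 CPM in AT, 5679 in BM and 5991 in PB.

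PB and AT differed less. The median member was 0.15 lower in PB than in AT (log2 difference -0.15) beside 0.03 for all 6720 genes, and 44 of 54 members were lower in PB. No member was lower by at least 0.5, where 10.2% of all genes were, and 1 member, *RPS27L*, was higher by that much, where 14.0% of all genes were. The members furthest below the median were *RPL3* (-0.40), *RPLP0* (-0.36), *RPS6* (-0.33) and *RPL6* (-0.32). *RPL6* had 6775 CPM in AT, 5385 in BM and 5418 in PB. Furthest above were *RPS27L* (0.76), *RPL38* (0.25), *RPS28* (0.22) and *RPL22* (0.17). *RPS28*, beside the mRNA exit, had 802, 590 and 934 CPM in AT, BM and PB, and *RPL22*, known for binding RNA also outside the ribosome, had 1404, 1061 and 1584 CPM.

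In PB against BM, 46 of 54 members were higher in PB, with a median difference of 0.24 beside -0.20 for all 7066 genes. The difference reached 0.5 for 15 members upward, where 6.28% of all genes passed, and for none downward, where 21.6% of all genes passed. With TMM scaling all 54 were higher in PB, with a median of 0.46 beside 0.005 for all genes. *RPS27* (0.90), *RPL38* (0.87), *RPL31* (0.77) and *RPS29* (0.72) were furthest above the median member. *RPL31*, another protein of the tunnel exit, had 2162 CPM in AT, 1330 in BM and 2266 in PB. Furthest below were *RPLP0* (-0.14), *RPL19* (-0.10), *RPL8* (-0.10) and *RPL3* (-0.09). *RPL8* had 5751 CPM in AT, 4942 in BM and 4622 in PB. All 3 pairs share their libraries, so they are not independent of each other.

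**Figure D2:**
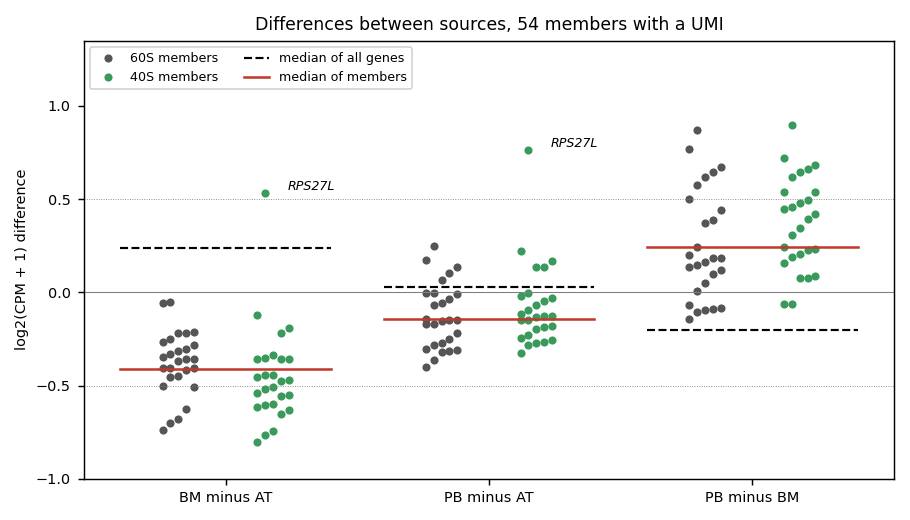
Log2(CPM + 1) difference of each of 54 RP genes for BM minus AT, PB minus AT and PB minus BM, with 60S members in grey and 40S members in green. Solid red lines mark the median member (-0.41, -0.15 and 0.24), dashed lines the median of all genes (0.24, 0.03 and -0.20), and dotted lines a difference of 0.5 either way.

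The functional groups within the ribosome were lower in BM than in AT as well. Of the stalk, *RPLP2* had 2212 CPM in AT, 1560 in BM and 2209 in PB, so that it differed from *RPLP0*, its partner, in being equally high in AT and PB. The 6 measured proteins of the exit tunnel (*RPL4*, *RPL19*, *RPL22*, *RPL26*, *RPL31* and *RPL35*) had a median log2 difference of -0.45 in BM against AT, and 2 of them were lower by at least 0.5, where 6.70% of all genes were. The 4 measured proteins along the mRNA path (*RPS2*, *RPS14*, *RPS26* and *RPS28*) had a median of -0.49, ranging from -0.12 for *RPS2* to -0.62 for *RPS26*. *RPS26* had 2509 CPM in AT, 1636 in BM and 2285 in PB. Of 18 genes known for mutations in Diamond-Blackfan anaemia, an inherited failure of red cell production, 16 were measured. All 16 were lower in BM than in AT (median -0.45), 6 of them by at least 0.5 (6.70% of all genes), beside an all-gene median of 0.24, and *RPS19*, the gene most often mutated in that disease, had 5860 CPM in AT, 4234 in BM and 5778 in PB.

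*RPS27L* was the exception among the RP genes. It encodes a close paralog of RPS27 and is known as a target of p53. Its level was 629 CPM in AT, 909 in BM and 1068 in PB, while *RPS27* was lowest in BM. *RPS27L* therefore gave 28.8% (95% Clopper-Pearson interval 28.5% to 29.1%) of the UMIs of this pair in AT, 49.8% (49.4% to 50.2%) in BM and 38.4% (38.2% to 38.7%) in PB. *RPS27L* and *RPS27* lie on different chromosomes (1 and 5) in the matrices. Of the 3 paralogs outside the rule, *RPL26L1* gave 7.90%, 13.6% and 8.34% of the UMIs it shared with *RPL26* in AT, BM and PB. *RPL22L1* gave 18.6%, 19.7% and 15.7% of those shared with *RPL22*, and *RPL7L1* gave 1.11%, 1.74% and 1.46% of those shared with *RPL7*. BM thus had the highest paralog share in all 4 of these pairs. A higher share is not always a higher level, since the RP gene of each pair was lower in BM than in AT. In BM against AT, *RPL26L1* differed by 0.42, *RPL7L1* by 0.30 and *RPL22L1* by -0.30 (log2), beside a median of 0.24 for all genes.

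*FAU* and *RACK1*, whose names do not mark them as RPs, were lowest in BM too. *FAU*, encoding RPS30 fused to a ubiquitin-like protein, had 4602 CPM in AT, 2999.8 in BM and 4289 in PB. *RPS27A*, which encodes an RP fused to ubiquitin, had 5326, 3890.2 and 5212 CPM. *RACK1*, a scaffold protein on the head of the 40S subunit, had 5843 CPM in AT, 3559.8 in BM and 3895 in PB and so was low in PB as well. Of the 2 rows that combine an RP gene with its neighbour, *RPL17-C18orf32* had 5461, 4491 and 5065 CPM and *RPL36A-HNRNPH2* had 5857, 2929.5 and 4648 CPM in AT, BM and PB.

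Elongation factors, which act on the ribosome during translation and carry TOP motifs too, were all lower in BM than in AT (5 of 5 measured, median log2 difference -0.37) and in PB than in AT (5 of 5, median -0.29). *EEF1A1*, which delivers aminoacyl-tRNAs, had 13495 CPM in AT, 10305 in BM and 10164 in PB. In PB against BM their median was 0.02, beside 0.24 for the RP genes. Of 9 measured TOP genes that are neither RP genes nor elongation factors, 6 were lower in BM and 8 in PB than in AT, with medians of -0.19 and -0.19. Of all genes, 1964 of 7072 were lower in BM and 3124 of 6720 in PB than in AT. *TPT1* had 7634, 5642 and 5517 CPM, and *VIM*, the intermediate filament of mesenchymal cells, had the opposite order with 8751, 11825 and 16594 CPM in AT, BM and PB.

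Other lists of the translation machinery were compared in the same way. Initiation factors had a median log2 difference of 0.02 in BM against AT, with 13 of 24 higher. They ranged from *EIF3M* with 327, 233 and 247 CPM in AT, BM and PB to *EIF4G2* with 221, 427 and 273 CPM. Ribosome biogenesis factors had a median of 0.09 in BM against AT (19 of 28 higher) and ranged from -0.35 to 1.07. *DKC1*, encoding dyskerin, had the lowest of these differences (-0.35), with 72.1, 56.3 and 47.4 CPM in AT, BM and PB. The 65 measured mitochondrial RPs, which form a separate ribosome inside mitochondria, had a median of 0.27 in BM against AT, and 59 of them were higher in BM. Of all genes, 5108 of 7072 were higher in BM, with a median of 0.24. In PB against AT the biogenesis factors had a median of -0.13 with 19 of 25 lower, beside -0.15 for the cytosolic RP genes, and the initiation factors had -0.05 with 15 of 24 lower. The mitochondrial RPs had a median of 0.04 in that pair, beside 0.03 for all genes. In PB against BM the medians of the initiation factors, biogenesis factors and mitochondrial RPs were -0.05, -0.23 and -0.23, beside 0.24 for the cytosolic RP genes and -0.20 for all genes.

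Single cells of a source varied widely in their RP share. With each cell thinned to 2500 UMIs, the median share was 24.6% in AT (5th to 95th percentile 19.4% to 30.2%), 18.7% in BM (14.4% to 23.6%) and 22.1% in PB (16.7% to 27.0%), and the medians without thinning were 24.6%, 18.7% and 22.1%. The SD among cells was 3.34, 2.78 and 3.07 percentage points, where drawing 2500 UMIs at random gives 0.862, 0.781 and 0.829. The distributions overlapped, but 96.7% of AT cells exceeded the BM median and 2.51% of BM cells exceeded the AT median. Of PB cells, 85.9% exceeded the BM median and 19.3% the AT median.

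**Figure D3:**
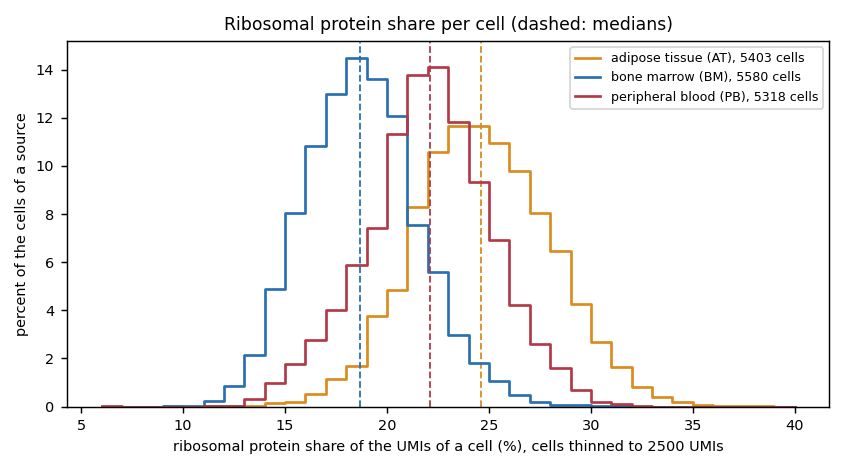
Distribution of the RP share of UMIs over the kept cells of each source after thinning to 2500 UMIs per cell, as percent of cells per 1-point bin, with medians as dashed lines. The BM curve (median 18.7%) lies below the PB curve (22.1%) and the AT curve (24.6%), and all 3 have a single peak.

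Both subunits moved together among cells. The summed 60S and 40S UMIs of a cell correlated with Pearson's r of 0.82 in AT, 0.81 in BM and 0.81 in PB over all kept cells at equal depth, a description of cells that share a library. The percentage of RP UMIs from 60S genes varied among cells with an SD of 2.13 points in AT, 2.45 in BM and 2.26 in PB, close to the 2.03, 2.34 and 2.15 that counting alone gives. The share was only weakly related to other cell measures, with rho of 0.02, -0.14 and -0.17 against total UMIs and -0.20, 0.12 and 0.19 against the mitochondrial percentage in AT, BM and PB. Cells above the mitochondrial median of their library had a lower median RP share in AT (24.0% against 25.2%) and a higher one in BM (19.0% against 18.4%) and PB (22.5% against 21.8%).

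Of 972 other genes with at least 100 CPM in every source, the elongation factor *EEF1A1* had the share of non-RP UMIs that followed the RP share most closely across cells. Spearman's rho was 0.69 in AT, 0.68 in BM and 0.63 in PB for this gene, and 0.46, 0.55 and 0.46 for *EEF1G*, another elongation factor subunit. *RPL17-C18orf32* (0.51, 0.50 and 0.49) and *RACK1* (0.55, 0.43 and 0.48) were also among the first 6, together with 2 rows without a symbol. Of the first 30 rows, 14 carried only an Ensembl identifier, against 0 of the last 30. Of all 29927 gene names, 13208 did, and their share among the 972 genes is not given here. The median over all 972 genes was 0.04, 0.06 and 0.05. The 5 elongation factors had medians of 0.42, 0.48 and 0.41, the 18 initiation factors 0.12, 0.20 and 0.12, and the 16 mitochondrial RPs 0.02, 0.03 and 0.04, in AT, BM and PB. The 5 stromal markers among these genes had medians of 0.31, 0.29 and 0.35, with 0.39, 0.36 and 0.47 for *COL1A2*, a chain of type I collagen. *ITGB1*, another of the 5, had -0.06, 0.06 and 0.02.

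At the other end, *PFN1*, encoding the actin-binding protein profilin, had rho of -0.25 in AT, -0.31 in BM and -0.29 in PB. *STMN1*, encoding the tubulin-binding stathmin, had -0.30, -0.30 and -0.23. *HNRNPA2B1* (-0.20, -0.22 and -0.21), *S100A5* (-0.33, -0.19 and -0.30), *CD63* (-0.28, -0.18 and -0.26) and *S100A6* (-0.27, -0.18 and -0.26) completed the last 6. S100A5 and S100A6 are calcium-binding proteins, and CD63 is a tetraspanin of endosomes and secreted vesicles. Of the 972 genes, 588 had rho above 0 and 175 below 0 in all 3 libraries.

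Cycling cells were compared with the other cells of the same library. *MKI67*, the usual proliferation marker, was not analysed here, and cells with a UMI of *TOP2A*, the topoisomerase of dividing cells, were called cycling. These were 412 cells in AT (7.63%, 95% Clopper-Pearson interval 6.93% to 8.37%), 709 in BM (12.7%, 11.8% to 13.6%) and 315 in PB (5.92%, 5.30% to 6.59%). They were deeper than other cells, with median UMI numbers of 9102.5 against 7202 in AT, 9573 against 6640 in BM and 10267 against 7658 in PB. A *TOP2A* UMI is more likely to be seen in a deeper cell, so this gap is not independent of the definition. After thinning to 2500 UMIs, 217 cells in AT, 351 in BM and 156 in PB still had a *TOP2A* UMI. The 15 other measured genes of a G2/M list were all called higher in cycling cells (edgeR quasi-likelihood test), where 10.6% of all genes were. *TOP2A* belongs to the same list and defined the class, so these calls are no independent check of it.

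RP mRNAs made up a smaller part of the mRNA of cycling cells in each source. The RP share was 22.6% in cycling and 24.9% in other cells of AT, 17.2% and 18.9% in BM, and 20.1% and 22.0% in PB. This was 9.36%, 9.31% and 8.44% lower in relative terms. Cycling cells held more UMIs, so a lower share does not mean fewer RP UMIs per cell. The log2 difference of summed RP CPM was -0.14 ± 0.0082 (mean and SD, n = 3 libraries), with the same sign in 3 of 3, and an exact sign-flip permutation test gave p = 0.25 (two-sided), the smallest value that 3 pairs allow. The SD does not cover the definition of cycling. With cells of at least 3 G2/M genes set against cells with none, the mean was -0.22. With cells thinned to 2500 UMIs, medians were 22.2% against 24.7% in AT, 16.9% against 18.8% in BM and 20.3% against 22.2% in PB. Cycling cells were also below other cells within each of 4 UMI ranges in each source, although the gap in PB between 5000 and 7500 UMIs (21.6% in 44 cells against 22.0%) was narrow and the range of 2500 to 5000 UMIs held only 18 cycling cells in PB. Other cells of PB themselves went from 23.6% in the lowest to 21.7% in the highest range, and those of AT lay between 24.2% and 25.8%. The median mitochondrial share was higher in cycling than in other cells (1.57% against 1.41% in AT, 2.01% against 1.95% in BM and 1.64% against 1.54% in PB), and its part in the difference was not tested.

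**Figure D4:**
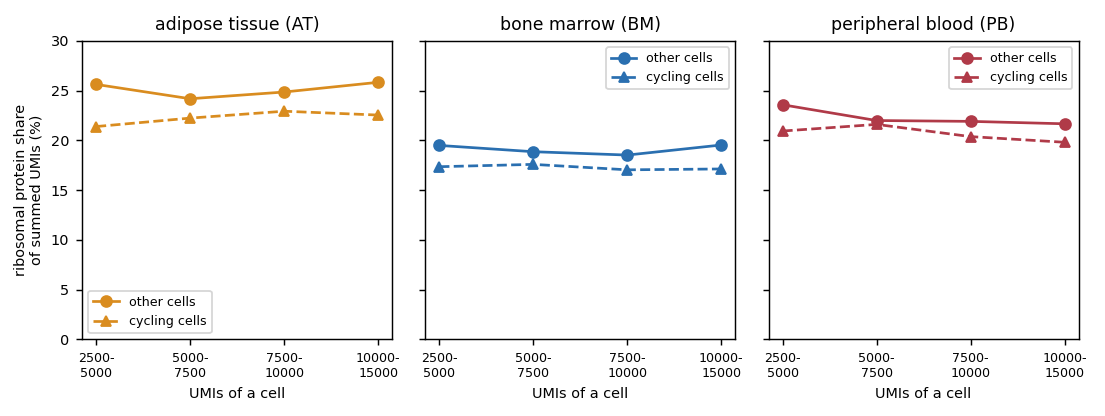
RP share of the summed UMIs (%) of cycling cells (triangles, dashed) and other cells (circles, solid) in 4 ranges of UMIs per cell for AT, BM and PB. Triangles lie below circles in all 12 range and source combinations, and the other cells of PB go from 23.6% in the lowest to 21.7% in the highest range.

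Gene by gene, the UMI sums of cycling and other cells were tested over the 3 libraries with edgeR, with the source as a block and Benjamini-Hochberg adjustment over 12462 genes. The p-values measure how evenly the effect recurred in these 3 libraries of 1 mare. Here and below, fell and rose refer to levels relative to the other RNA of the same cells. Whether RP mRNA per cell differed was not tested. Of 54 members tested, 46 fell in cycling cells, where 10.5% of all genes fell, and 0 rose, where 10.6% of all genes rose. No member had an unadjusted p under 0.05 in the upward direction by edgeR or by DESeq2. The median member changed by -0.24 (log2) and the median gene by -0.04. Leaving out PB left 17 members called lower, where 3.59% of all genes were, leaving out AT 37 (9.70% of all genes) and leaving out BM 48 (9.39%). A fit without the source term called 0 members lower, where 0.0321% of all genes were, with 0 at an unadjusted p under 0.05. The DESeq2 Wald test called 35 members lower, where 6.95% of all genes were.

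Scaling bears on the size of these values. With TMM factors all 54 members had values below 0, whereas scaling by total UMIs moved the median gene to 0.06 and the median member to -0.14, with 50 members below 0. It called 30 members lower, where 6.56% of all genes were, and 0 higher, where 15.2% of all genes were. The values per source in the next paragraphs are on the total UMI scale, and the edgeR log2 values are on the TMM scale. On the total UMI scale, 52 of 54 members were lower in cycling cells of AT, 50 in BM, 49 in PB and 47 in all 3.

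The largest fall was that of *RPS27*, with 1268 CPM in cycling and 1587 in other cells of AT, 756 and 949 in BM, and 1478 and 1729.5 in PB (edgeR log2 -0.40 ± 0.052 SE, adjusted p = 0.000526). *RPL9* had 7176 and 8087 CPM in cycling and other cells of AT, 5146 and 6461 in BM, and 6067 and 7187 in PB (log2 -0.35 ± 0.044, edgeR adjusted p = 0.000399). *RPS27A* had 4655 and 5395 CPM in AT, 3247 and 4019 in BM, and 4614.5 and 5261 in PB (log2 -0.34 ± 0.044, edgeR adjusted p = 0.000477). The cycling value was the lower one in each library for all 3 genes. *RPL6* (-0.33), *RPL3* (-0.33) and *RPL13A* (-0.32) followed on the edgeR log2 scale.

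*RPLP0* changed by -0.24 on that scale (edgeR adjusted p = 0.00106), *RPL5* by -0.29 (0.00167), *RPS6* by -0.27 (0.000919) and *RPSA* by -0.18 (0.00727). *RPS26* was called lower (-0.17, edgeR adjusted p = 0.0397) although its CPM in PB were 2302 in cycling and 2284 in other cells. With total UMI scaling *RPSA* and *RPS26* did not pass (edgeR adjusted p = 0.155 and 0.401). The 8 members that did not pass were *RPLP2* (-0.15, edgeR adjusted p = 0.0513), *RPS16* (-0.13), *RPS29* (-0.16), *RPL29* (-0.09), *RPL11* (-0.19 ± 0.11), *RPS21* (-0.07), *RPL36* (-0.07) and *RPS27L* (-0.06). *RPL11* rested on few UMIs, and *RPS27L*, *RPL36*, *RPS21* and *RPL29* were the 4 highest members.

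*RPS27L* had 664 and 626 CPM in cycling and other cells of AT, 867 and 918 in BM, and 1152 and 1061 in PB, with an edgeR adjusted p of 0.521. *RPS27* was lower in cycling cells of each library, while *RPS27L* was higher in AT and PB and lower in BM. *RPS27L* gave a larger part of the UMIs of the pair in cycling than in other cells, with 34.4% against 28.3% in AT, 53.4% against 49.2% in BM and 43.8% against 38.0% in PB. The *RPL22L1* part of its pair was likewise larger in cycling cells, with 21.2% against 18.3% in AT, 23.9% against 18.9% in BM and 20.5% against 15.3% in PB. Neither ratio was tested.

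**Figure D5:**
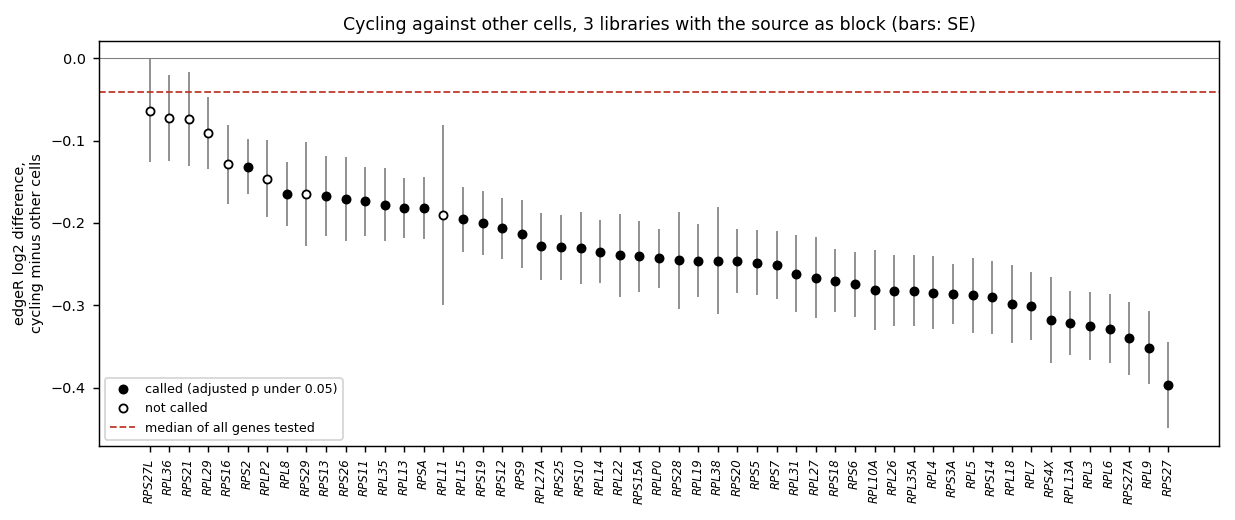
edgeR log2 difference between cycling and other cells (points, with SE as bars) of 53 of the 54 RP genes tested over 3 libraries with the source as block and TMM scaling, filled where the adjusted p was under 0.05. The 45 filled points, of 46 members called, reach from -0.13 (*RPS2*) to -0.40 (*RPS27*), and the dashed line marks the median of all 12462 genes at -0.04.

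Members of each functional group fell in cycling cells, where 10.5% of all genes fell. All 6 measured exit tunnel genes, all 4 mRNA path genes and 14 of 16 Diamond-Blackfan genes fell, with median edgeR log2 differences of -0.25, -0.21 and -0.25, and 23 of 27 members of each subunit fell. Scaling by total UMIs left 4 of the 6, 1 of the 4 and 8 of the 16 called lower, with 17 members of the 60S and 13 of the 40S subunit, where 6.56% of all genes were called lower. *FAU* (-0.27) and *RACK1* (-0.23) were called lower too, but *RACK1* was not with total UMI scaling (edgeR adjusted p = 0.0550). Of the paralogs outside the rule, *RPL22L1* (0.16), *RPL7L1* (0.01) and *RPL26L1* (-0.08), none passed the test, although *RPL22L1* was called higher with total UMI scaling (0.27, edgeR adjusted p = 0.0262).

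The other lists are set beside all genes, of which 10.5% fell and 10.6% rose. Elongation factors fell in 5 of 5 cases, with a median of -0.34, and *EEF2*, which drives translocation, changed by -0.68 ± 0.079 (edgeR adjusted p = 0.000244). Of 9 measured TOP genes that are neither RP genes nor elongation factors, 8 fell. Some of these belong to the next lists as well. Of 24 initiation factors 11 fell and 3 rose, led by *EIF3D* (-0.75) and *EIF3E* (-0.74) at the low end, both subunits of the eIF3 complex. *EIF4E*, the cap-binding protein, rose by 0.31 (edgeR adjusted p = 0.0231). Ribosome biogenesis factors went the other way, with 10 of 36 higher, 2 lower and a median of 0.25. *NCL*, encoding nucleolin, rose by 0.48 and *NOP58*, of the rRNA-methylating particles, by 0.63, while *NPM1* (nucleophosmin) fell by 0.35 (edgeR adjusted p = 0.00119, 0.0103 and 0.00539). Of 65 mitochondrial RPs, 15 rose and 3 fell, with a median of 0.13. With scaling by total UMIs, where 6.56% of all genes were called lower and 15.2% higher, 3 of the 5 elongation factors and 6 of the 9 further TOP genes were called lower. The initiation factors then had 7 calls in each direction, and 15 biogenesis factors and 27 mitochondrial RPs were called higher. Stromal markers fell too, with 5 of 7 called lower, a median of -0.38 and *COL3A1*, a fibrillar collagen, at -0.76 on the TMM scale. With total UMI scaling 4 of the 7 were called lower. *ITGB1* was above 0 on the TMM scale (0.12) and was not called. The part of the stromal markers in the RP difference was not tested.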

How the data were processed

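The 3 libraries, 1 for each tissue of the same mare, were made with the 3′ kit of 10X Genomics. CellRanger was used by the authors for barcodes and for mapping to the EquCab3.0 genome, and they then counted UMIs per gene with ESAT, including reads just past annotated gene ends, leaving out exons that overlap on opposite strands, and sharing reads of duplicated features in a second pass. The deposited values are raw UMI counts, a whole number for each gene in each barcode. The 3′ tags are not length dependent, and reads that match several copies of an RP gene make single rows less certain.

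Barcodes were kept if they had 2500 to 15000 UMIs and a share of chromosome MT no higher than 3% (Python 3.11.15, NumPy 2.4.6, SciPy 1.17.1, pandas 2.3.3). The upper limit was the only step against doublets, and an alternative removed cells in the top 5% of Scrublet scores (run in Scanpy 1.11.5). The multiplet caller of the study was not run. The kept cells held 39980656 (AT), 40239295 (BM) and 41622445 (PB) UMIs. Levels are CPM of UMIs summed over cells, and 2 sources were compared by subtracting log2(CPM + 1) values without a test, set beside all genes with at least 10 CPM in 1 of both sources. Exact 95% Poisson and Clopper-Pearson intervals cover counting error only. Cycling cells (a *TOP2A* UMI, since *MKI67* was not analysed here) and other cells were summed per library and compared with the quasi-likelihood test of edgeR 4.0.16 (R 4.3.3) after filterByExpr, with TMM scaling, the source as a block, Benjamini-Hochberg adjustment over all genes tested and a threshold of 0.05. *TOP2A* was left out of that test. DESeq2 1.42.0 served as an alternative. The computations were tested on simulated data. Cells were thinned to 2500 UMIs with fixed seeds where shares of single cells were compared.

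The members and all gene lists were chosen with earlier results of these data known. Genes named are those of the stalk, the 5S ribonucleoprotein, RPSA, RPS6 and paralogs, the 10 highest by mean CPM, members below 10 CPM in all sources, the 4 furthest above and below the median member per pair of sources with at least 100 CPM, up to 6 called genes per direction in cycling cells (the 4 highest where none was called), RPs with other names, the 2 extremes of other lists, and the 6 genes at either end of the correlation with the RP share. *RPS19*, *RPS26*, *RPS16*, *RPS29*, *RPL38*, *NCL*, *NOP58* and *TPT1*, where they fell outside this rule, were chosen after their values were seen. Some genes that this rule or the lists hold are not reported here by name, and counts and sums include them where measured. Alternatives concerned cell filters, depth, doublets, shared barcodes, the definition of cycling, scaling, pseudocount, threshold, tool, filter on low counts, the source block and each library in turn.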

Additional observations from a re-analysis of the deposited data

Results flagged for a closer look

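In 3 RP genes the difference between cycling and other cells had opposite signs in different sources, each beyond its counting error in at least 1 source either way (log2 of CPM, total UMI scale). *RPL29* had -0.033 in AT, 0.013 in BM and 0.057 in PB. *RPS16* had -0.094 in AT, 0.052 in BM and -0.034 in PB. *RPS27L* had 0.086 in AT, -0.083 in BM and 0.12 in PB. With 1 library per source, the difference between sources was not tested, and these were picked from 54 members.

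Barcodes with 500 to 2500 UMIs, which the kept cells leave out and only an alternative included, had RP shares of 21.9% in AT, 19.6% in BM and 21.9% in PB, beside 24.7%, 18.6% and 21.8% in the kept cells. Of the 5186 such barcodes in AT, 4870 occurred in another library as well. The share of 21.9% in AT is that of all 5186, and none was computed for the 4870 alone. The part of shared barcodes in it was not tested.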

How the results depend on the processing

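The order of RP shares (AT, PB, BM) held in every alternative that gave all 3 values. In AT the share was 24.4% with all barcodes of at least 500 UMIs, 24.6% without the mitochondrial limit, 24.8% without the upper UMI limit, 24.6% without high Scrublet scores and 24.9% without cycling cells. In BM it was 18.7% with thinning, 18.6% from 500 UMIs, 18.7% without the mitochondrial and 18.7% without the upper UMI limit, 18.6% without high Scrublet scores, 18.9% without cycling cells and 18.7% as mean of single cells. In PB the same settings gave 22.0%, 21.9%, 21.8%, 21.9%, 21.8%, 22.0% and 22.0%. These moves exceed the narrow counting intervals only. RP genes past a log2 difference of 0.5 in either direction numbered 20 in BM against AT (19 lower and 1 higher), 1 in PB against AT (higher) and 15 in PB against BM (all higher). The shares of all genes in each direction are given above. TMM factors gave 45 (all lower), 1 (higher) and 26 (all higher), so *RPS27L* no longer passed in BM against AT. A threshold of 1 gave 0, 0 and 0. No share of all genes was at hand for TMM scaling or for the threshold of 1. RP genes called lower in cycling cells numbered 46, with 30 under total UMI scaling, 35 by the DESeq2 Wald test, 0 without the source block and 17 to 48 with 1 library left out (17 without PB). None was called higher in any alternative. The mean log2 difference of summed RP CPM of -0.14 became -0.11 in cells of 5000 to 10000 UMIs, -0.16 with at least 2 *TOP2A* UMIs and -0.22 with at least 3 G2/M genes, and ranged from -0.141 to -0.134 with 1 library left out. Leaving out barcodes listed in more than 1 library could not be computed for PB, since all 5318 kept barcodes are listed in AT, and leaving out those kept in more than 1 library, added after seeing the data, changed no call count. No paired analysis by replicate number was possible because the labels give 1 library per source, and the source block pairs the 2 cell classes of a library. Counting error was larger for members of low level, such as *RPL11* and *RPS29*, and *RPL3L* had 0 UMIs. The causes of these changes were not tested.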
